A study of Mus musculus with 20 samples.

Results

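Arterial endothelial cells line the vessels that carry blood into a tissue. The cells described here are those of mouse interscapular brown adipose tissue (iBAT), read from single-cell RNA-seq of lineage-negative (Lin-) stromal cells. They were chosen by transcript counts alone. A cell was kept when it had less than 10% mitochondrial counts, fewer than 15000 counts and at least 500 genes. It then needed a summed count of at least 1 for the endothelial genes Pecam1, Cdh5 and Kdr and at least 2 for the arterial genes Stmn2, Sema3g, Gja5, Alox12 and Gkn3. Cells with a summed count of 1 or more for the venous genes Ackr1, Selp and Sele, or for Pdgfra and Ptprc, which mark stromal and immune cells, were left out. This gave 2043 arterial cells among 8793 endothelial cells and 60538 Lin- cells past the same filters, from 110 to 271 cells in each of 10 libraries. The endothelial cells with an arterial sum below 1 and no venous call (5873 cells) served for comparison and are called other endothelial cells.

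The study compared iBAT stromal cells of control mice with those of mice that form new brown adipocytes. Male C57 mice were held at room temperature (RT, about 24 °C by the housing given in the methods) or moved to 6 °C (COLD, 4 days). A further group was kept at RT with a pump delivering CL316,243 (CL, 0.75 nmol per hour, 4 days), a β3 adrenergic agonist. Each of these groups had 2 libraries. Female Adrb1 fl/fl mice, either with Pdgfra-CreERT2 (KO) or without it (WT), all received tamoxifen and were kept at RT or in the cold, with 1 library for each of the 4 groups. Each library pooled 3 to 4 mice aged 8 to 14 weeks, so a library is the replicate, and the C57 and Adrb1 lines differ in sex as well. The KO deletes Adrb1 in Pdgfra-expressing cells, which the rule excludes, so that arterial cells of KO mice are not the targeted cells. The 10x kit was version 2 for C57 mice and for Adrb1 mice in the cold, and version 3 for Adrb1 mice at RT, and per the methods the RT and cold libraries of this line were also made on separate days, so that here temperature, kit and collection day cannot be told apart. Lin- cells are the flow-through of a magnetic depletion against CD5, CD11b, CD45R, Gr-1, 7-4 and Ter-119, which is directed at leukocytes and erythroid cells. The bound (Lin+) fraction also held 1369 endothelial cells, of which 7.69% to 17.9% in a library were arterial by the same rule. The part of this separation in the arterial shares of Lin- cells was not tested.

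Arterial identity is set by VEGF and Notch signalling, in which ligands such as Dll4 and Jag1 on one cell activate Notch receptors on the next and induce Hey transcription factors, together with Sox17. Arterial cells are coupled by the gap junction proteins Gja4 and Gja5, lie on an elastic matrix and release endothelin and other agents that set the tone of the smooth muscle around them. Capillary endothelium in adipose tissue instead carries the lipid uptake machinery, with Gpihbp1 and Lpl on the vessel wall and Cd36 and fatty acid binding proteins within the cell.

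The arterial libraries held 301301 to 1039900 summed counts, with medians of 1391 to 4443 counts and 1091 to 2085 genes per cell. The C57 RT replicate 2 library stood apart. It had 22072 barcodes, of which 25.4% passed the filters, against 56.1% to 90.9% of 4204 to 14792 barcodes elsewhere. Ribosomal protein genes made up 2.51% of its arterial counts and Malat1 made up 0.449%, whereas the other 9 libraries held 3.25% to 9.38% and 1.28% to 3.04%. No arterial cell barcode was shared between Lin- libraries (45 pairs), and 17 also occurred in the Lin+ library of the same experiment. Levels are given as CPM, the counts of a gene per 1000000 summed counts of the class in a library. Xist, which females express, ran from 478 to 892 CPM in arterial cells of Adrb1 mice and reached 1.04 CPM at most in C57 cells.

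**Figure D1:**
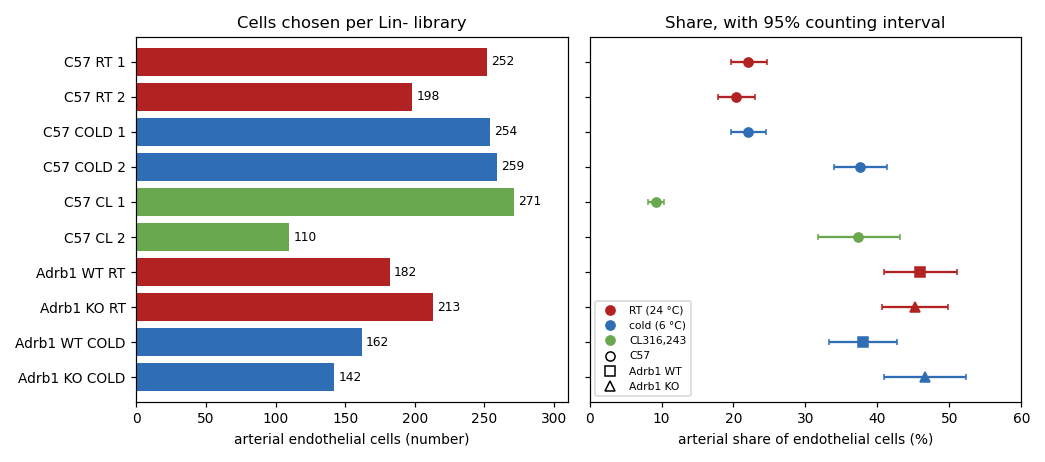
Number of arterial endothelial cells (left, bars) and their share of all endothelial cells in percent (right, points with 95% exact binomial intervals that cover counting error only) in each Lin- library, coloured by treatment and with a symbol for each line. Counts run from 110 to 271, and the C57 shares run from 9.21% to 37.6% while those of the Adrb1 line run from 37.9% to 46.6%.

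The markers of the chosen cells were as follows. Detection of the genes that chose the cells follows from the rule and is no check of the label. Of the genes that chose the cells, counted as found at a value of 0.5 or more, Stmn2 was found in 95.1% of them, Sema3g in 72.2%, Alox12 in 46.9%, Gja5 in 32.3% and Gkn3 in 12.9%. A single one of these genes was found in 246 cells, at least 2 in the rest, and all 5 in 22 cells. At the border of the rule, genes that it did not use had the following levels. The 377 cells with an arterial sum just inside (2 to 3) had Fbln5 at 958 CPM, Sox17 at 781 and Gja4 at 457, and the 475 cells just outside (1 to 2) had them at 734, 610 and 333. Unc5b, another arterial gene, was instead at 112 CPM just inside and at 131 just outside. The capillary genes Gpihbp1 and Rgcc were at 1709 and 1155 CPM just inside and at 2201 and 1395 just outside.

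A small number of the chosen cells carried lymphatic genes. With 5 or more summed counts of Prox1, Lyve1, Mmrn1 and Ccl21a, 40 cells (1.96%) formed this set, at most 7.04% of a library, in Adrb1 KO COLD. They held Ccl21a, a chemokine of lymphatic vessels, at 32696 CPM against 3.19 in the remaining cells, and Prox1, the lymphatic transcription factor, at 509 against 0.807. Stmn2, at 993 CPM against 1447, brought them past the rule, while Sema3g was at 54.3 against 622, Sox17 at 68.5 against 961 and Gkn3 had no count. The data go against the arterial label for these 40 cells, and results were also computed without them.

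Compared with other endothelial cells, the arterial cells were higher in further genes of arterial identity, in Notch ligands and targets, and in single genes of other lists such as Fbln5, Gja4 and Edn1, and lower in capillary genes. Both classes come from the same libraries and the rule sorted them by expression, so these ratios are a description with no test. Of 13196 genes at 1 CPM or more, 7.42% were higher and 5.4% were lower in the arterial cells of all 10 libraries. Of 26 further genes of arterial identity, 23 were higher in all 10 libraries and 0 lower, with a median log2 ratio of 1.76, where the median over all genes was 0. Ratios below are medians over the 10 libraries of log2 of CPM with a pseudocount of 5.

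Outside the choosing genes Vegfc, a VEGF family ligand, had the largest ratio (3.51), with a median of 233 CPM in arterial cells (109 to 349 over the libraries) against 13.4 in other endothelial cells (9.61 to 45.0). Gja4, a connexin, was at 723 CPM (383 to 877) against 75.6 (33.0 to 131). Fbln5, which assembles elastic fibres, was at 1537 CPM (1079 to 2351) against 165 (88.0 to 211). For none of these 3 genes did the ranges of the classes overlap.

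In the Notch list 9 of 16 genes were higher in all 10 libraries and 0 lower (median ratio 0.88). The ligands Jag1 and Jag2 had ratios of 2.43 and 2.20, and Jag1 was at 229 CPM against 35.5. The target Hey1 had a ratio of 2.23, the receptors Notch4 and Notch1 had 1.23 and 1.16, and the ligand Dll4 had the smallest of these, 0.80. Sox17 was at 1036 CPM against 249 (ratio 1.83), and Efnb2, the arterial ephrin ligand, had a ratio of 1.33. The BMP and TGFβ list had 8 of 19 genes higher in all 10 libraries and 0 lower (median 0.53), among them the ligand Tgfb2 (2.80), the inhibitory Smad6 (1.65) and the target Id1 (1.01).

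Vasoactive genes went both ways. Of 25 genes, 8 were higher and 7 were lower in all 10 libraries. Edn1, the precursor of the vasoconstrictor endothelin, was at 479 CPM (257 to 620) against 55.2 (10.3 to 69.2). The potassium channel Kcnn4 had a ratio of 2.60, the calcium channel Trpv4 had 2.87 and Ace, which makes angiotensin II, had 2.14. Among the lower genes were the adrenomedullin precursor Adm (-1.98) and the receptor components Ramp3 (-2.36) and Calcrl (-1.33), which bind it. Adra2c, an α2 adrenergic receptor, was at 89.9 CPM (16.2 to 124) against 0.411 (0 to 5.71).

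The matrix list was split as well, with 11 of 31 genes higher and 11 lower in all 10 libraries (median ratio -0.72). The higher genes included Col8a1 (3.18, 540 CPM against 51.0), Fbln2 (1.98), Ltbp4 (1.81), Eln, which encodes elastin (1.48), and Mgp, an inhibitor of calcification (1.46). Collagens of basement membranes went both ways, with Col15a1 (-2.20), Col4a1 (-1.36) and Col4a2 (-1.11) lower and Col18a1 (1.66) higher in all 10 libraries. Of 15 capillary genes with counts, 7 were lower in all 10 libraries and 0 higher (median -0.82). Aqp1, a water channel, was at 103 CPM (27.9 to 151) against 1154 (701 to 3293), Car4 was at 76.7 against 504.4 and Lpl was at 196 against 906. Gpihbp1 was lower but far from absent, at 1142 CPM against 2492. The lipid carriers Cd36 and Fabp4 had ratios of -0.19 and -0.55 and were not lower in every library. Esm1 and Aplnr, genes of sprouting and of capillary or venous endothelium, had ratios of -2.88 and -3.70, and Esm1 had a median of 0 CPM.

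**Figure D2:**
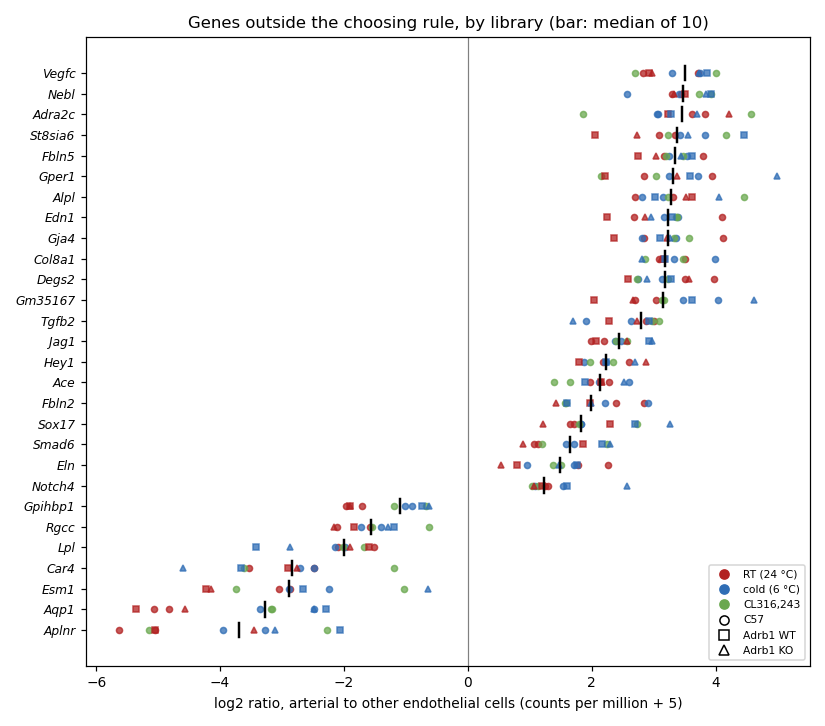
Log2 ratio of arterial to other endothelial cells (x axis, CPM with a pseudocount of 5) for 28 genes outside the choosing rule (rows), with a point for each of the 10 libraries and a bar at their median. Vegfc to Notch4 lie above 0 in all 10 libraries and Gpihbp1 to Aplnr lie below 0 in all 10.

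Arterial cells also carried genes of smooth muscle and pericytes. Counts of Acta2, Tagln, Myh11 and Rgs5 summed to 2 or more in 18.1% to 39.4% of the arterial cells of a library, and in 5.98% to 14.4% of the other endothelial cells. Arterial cells were also deeper in every library, with medians of 1391 to 4443 counts per cell against 909 to 2398. The part of depth in these percentages was not tested. The 11 mural genes summed to 4318, 8941, 5548 and 7798 CPM in the arterial cells of the RT libraries (C57 replicates 1 and 2, then WT and KO), and to 3990, 4188, 3308 and 3154 CPM in the cold libraries in the same order. All 4 cold libraries were below all 4 RT libraries, and the CL libraries had 2595 and 7333 CPM. The 9 stromal genes ran from 134 CPM in KO RT to 3566 CPM in C57 COLD replicate 2. The 12 immune genes reached at most 74.0 CPM and 2 of them were at 0 in all libraries. The 10 brown adipocyte genes ran from 18107 to 44707 CPM. They include Fabp4 and Cd36, which endothelial cells express too, and Fabp4 alone was at 16374 to 41563 CPM.

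**Figure D3:**
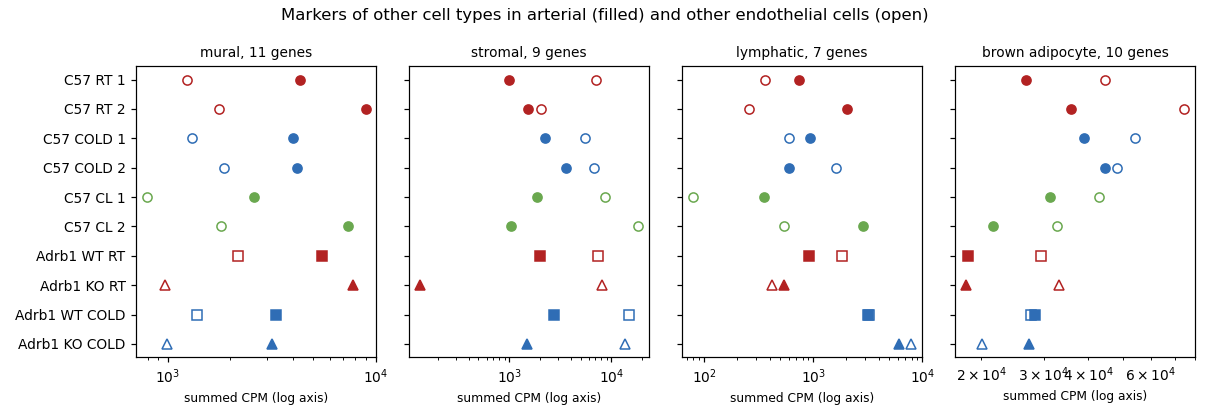
Summed CPM (x axes, log scale) of marker genes of mural, stromal, lymphatic and brown adipocyte cells in arterial cells (filled) and other endothelial cells (open) of each library (rows), with colour for treatment and symbol for line as in the plot of cell numbers. Mural genes are higher in arterial cells in every library, and their arterial sums lie at 3154 to 4188 CPM in the cold and at 4318 to 8941 CPM at RT. Fabp4, which endothelial cells express too, makes up most of the brown adipocyte sums.

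The arterial cells were not uniform. Gkn3, the least frequent of the choosing genes, was found in 263 cells, from 2.95% of the arterial cells in C57 CL replicate 1 to 26.1% in Adrb1 KO COLD. In the 9 libraries with at least 10 Gkn3-positive cells, these cells held Mgp at a median of 5554 CPM against 234 in Gkn3-negative arterial cells, and Cytl1, which encodes a secreted protein, at 1451 against 30.4. Eln was at 1080 CPM against 215, the secreted chaperone Clu was at 2279 against 391 and Adra2c was at 236 against 46.0. Vwf, the clotting factor carrier, was at 267 CPM against 86.4. All 6 genes were higher in the Gkn3-positive cells of all 9 libraries. In contrast, Cd300lg, a gene of capillaries, was at 50.1 CPM against 579.9 and Btnl9 was at 80.4 against 639.8, lower in 9 of 9 libraries. Markers of other cell types differed between the groups as well. The 40 lymphatic cells are all Gkn3-negative, and Ccl21a and Lyve1 were at 0 CPM in Gkn3-positive cells against 666 and 188 CPM. The stromal genes Dcn and Col1a1 were at 9.18 and 0 CPM against 369 and 124 CPM. Mural genes went both ways. Myh11 and Acta2 were at 855 and 1837 CPM against 259 and 832 CPM, while Rgs5 and Pdgfrb were at 562 and 60.7 CPM against 1725 and 119 CPM. The haemoglobin genes Hbb-bs, Hba-a1 and Hba-a2 were at 0 CPM against 835, 229 and 160 CPM. Their part in the other values was not tested. The groups were defined from the same cells, so these values carry no test.

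The next question is whether cold or CL changed how many endothelial cells were arterial. In C57 mice arterial cells made up 22.1% and 20.4% of endothelial cells at RT, 21.99% and 37.6% after cold, and 9.21% and 37.3% after CL. It was 46.0% in WT RT and 45.2% in KO RT, and 37.9% in WT COLD and 46.6% in KO COLD. The C57 means were 21.2% ± 1.21 (SD, n = 2) at RT, 29.8% ± 11.03 (n = 2) in the cold and 23.2% ± 19.9 (n = 2) with CL. The cold difference was 8.56 percentage points and the CL difference 2.02 points (two-sided exact permutation tests, p = 0.6667 and p = 1, with 0.3333 the smallest p that 2 libraries against 2 allow). Over the 8 RT and cold libraries, permuted without regard to line, the difference was 2.61 points (exact permutation test, p = 0.8). Within the Adrb1 line it was -3.34 points (p = 1, exact). These shares differed by less than the spread between libraries. The value in the Adrb1 line was -15.3 points with rounded counts, where the groups were apart, and 0.504 points without mural counts (exact permutation tests, p = 0.3333, the smallest possible, and p = 1). Leaving out COLD replicate 2 gave a cold difference of 0.763 points and leaving out COLD replicate 1 gave 16.4. Without C57 RT replicate 2 it was 7.71. The CL difference was -12.0 points without CL replicate 2 and 16.1 without CL replicate 1. As a share of all Lin- cells, the arterial cells differed by -0.83 points after cold and by -1.85 points with CL in C57 mice. Over the 8 libraries the cold difference was -2.12 points of all Lin- cells, and as a share of endothelial cells it was -5.69 points with rounded counts, 5.10 points without mural counts and -0.221 points with cells thinned as described next. Because the rule reads counts, a share also moves with depth and with the level of the choosing genes. Values were rounded to whole counts and each cell was then thinned to 1000 counts, which left out 15 to 1163 shallower endothelial cells a library. The C57 shares were then 14.6% and 26.3% at RT, 22.5% and 25% after cold and 12.3% and 20.2% with CL (differences of 3.30 and -4.18 points). With rounding alone they were 21.98% and 24.3% at RT, 22.2% and 32.0% after cold and 13.2% and 28.7% with CL.

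Arterial gene expression after 4 days of cold was tested first in C57 mice, with the counts of arterial cells summed per library. None of 7805 genes passed an adjusted p of 0.05 (0%), and the same held without C57 RT replicate 2. At an unadjusted p under 0.05 there were 613 genes, 4.34% of all tested higher and 3.51% lower, and the DESeq2 Wald test called 3 genes, Ctla2a, Irf7 and Sdcbp2, all higher. Among the lists, interferon-stimulated genes had 16 of 29 genes with an unadjusted p under 0.05, all higher in the cold, and a median log2 difference of 0.85, where the median of all genes was -0.0048. In 22 of the 29 both COLD libraries were above both RT libraries, against 13.8% of all genes tested. The leukocyte adhesion and chemokine list had 7 of 15 higher at an unadjusted p under 0.05 and 0 lower (median 0.82), with Csf1, a macrophage growth factor, at 1.81 ± 0.40 (SE) and Cxcl12 at 1.76 ± 0.62 on the log2 scale. The list of venous genes had 5 of 10 higher and 0 lower (median 0.83), and the matrix list had 7 of 30 higher and 1 lower (median 0.37). In contrast, arterial identity genes had 3 of 26 higher and 4 lower (median -0.01). In the same comparison the stromal markers had 4 of 9 higher at an unadjusted p under 0.05 and 0 lower (median 1.21), and in 8 of the 9 both COLD libraries were above both RT libraries. The part of stromal RNA in the matrix, chemokine and other values was not tested.

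The cold libraries of both lines together allowed a fit of 4 libraries against 4, with a term for each of the C57, WT and KO groups. It called 218 of 8023 genes, 117 higher (1.46%) and 101 lower (1.26%). The same fit of the other endothelial cells of these libraries called 675 of 8285 genes, and of the 181 arterial calls tested there 66 were called there too, among them Ctla2a (1.17), Ifitm10 (3.44), Dpep1 (1.58), Smad6 (0.96), Usp18 (1.98), Hey1 (1.27), Ifit1 (1.95), Sema6a (-1.35) and Cirbp (-1.29). The values below are thus cold differences of arterial cells, and whether the classes differ is given further on for a part of the genes. In 171 of the 218 all 4 cold libraries lay on one side of all 4 RT libraries, which 8.86% of all genes tested did. The 218 were called from these same libraries, so this separation is no independent evidence. The number of calls depended on the libraries. It was 421 without C57 RT replicate 2 (199 of the 218 among them), 347 without C57 RT replicate 1 (171), 169 without C57 COLD replicate 1 (119), and between 15 and 49 without C57 COLD replicate 2 or without any library of the Adrb1 line. The same 9 genes, described next, were called in all 8 of these fits, and the other genes named below as called in this comparison passed in 0 (Ifi44) to 6 of them. Without the cells with lymphatic counts it was 243 (214 of the 218). With the replicate number of the C57 libraries, which marks a shared experiment, as a block it was 161 (147 of the 218). Ribosomal protein genes made up 9.34%, 2.51%, 7.67% and 6.39% of the arterial counts at RT (C57 replicates 1 and 2, WT and KO) and 3.25%, 4.87%, 4.66% and 4.18% in the cold. Mitochondrial genes made up 1.20%, 9.2e-06%, 2.83% and 2.39% at RT and 1.01%, 0.185%, 0.736% and 0.958% in the cold. Apart from C57 RT replicate 2, both shares were lower in all cold libraries than in all RT libraries, and the part of this in the calls was not tested. Genes outside the lists are named from this fit after their values were seen. In the Adrb1 line the cold difference is also one between kits and collection days, so the value of each line is given, and CPM values follow the order C57 replicate 1, C57 replicate 2, WT and KO.

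Ctla2a, which encodes an inhibitor of cysteine proteases, was at 55.3, 53.0, 45.5 and 92.3 CPM at RT and at 496, 565, 407 and 418 CPM in the cold. The lowest cold library was thus above the highest RT library. It rose by 2.88 ± 0.29 (SE) on the log2 scale (adjusted p = 0.0018), with 3.33 in C57 mice and 2.45 in the Adrb1 line. Reads of the related gene Ctla2b may be counted with it. In the CL libraries it was at 494 and 76.2 CPM, within the cold range in 1 library and within the RT range in the other.

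Col15a1, the basement membrane collagen that arterial cells hold at a lower level than other endothelial cells, was at 13.6, 23.2, 3.04 and 4.81 CPM at RT and at 109, 66.4, 44.1 and 51.5 CPM in the cold. It rose by 2.72 ± 0.30 (adjusted p = 0.0018, 2.38 in C57 and 3.34 in the Adrb1 line). Dpep1, a membrane dipeptidase, was at 27.1, 23.2, 3.04 and 1.92 CPM at RT and at 124, 86.2, 63.7 and 40.1 CPM in the cold. It rose by 2.54 ± 0.35 (adjusted p = 0.0063). The groups did not overlap for either gene. The difference between the lines did not pass for Dpep1 (1.97 in C57 and 4.12 in the Adrb1 line, adjusted p = 0.243) or for Col15a1 (adjusted p = 0.562).

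Sdcbp2, which encodes the scaffold syntenin-2 and is itself an arterial gene (ratio to other endothelial cells 2.94), was at 34.4, 86.2, 41.0 and 31.7 CPM at RT and at 192, 212, 163 and 225 CPM in the cold. It rose by 2.12 ± 0.23 (adjusted p = 0.0018). Ifitm10, Abi3 and Upp1, a uridine phosphorylase, rose by 2.45 ± 0.25, 2.21 ± 0.23 and 1.87 ± 0.21. Each of these had all cold libraries above all RT libraries, for Abi3 62.1 to 84.1 CPM against 9.11 to 19.9.

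Genes of BMP signalling were among the called genes, 2 of 17 higher and 0 lower (median 0.30). Smad6, which inhibits BMP receptors and is induced by them, was at 56.3, 123, 54.6 and 60.5 CPM at RT and at 214, 237, 201 and 292 CPM in the cold. It rose by 1.72 ± 0.21 (adjusted p = 0.0037), with 1.55 in C57 mice and 1.90 in the Adrb1 line. Eng, the BMP co-receptor endoglin, was at 508, 716, 417 and 435 CPM at RT and at 1398, 1438, 1185 and 1408 CPM in the cold, and rose by 1.37 ± 0.29 (adjusted p = 0.0339). In both genes the groups were apart. Smad6 was called in all 8 fits without 1 library and with the replicate block. Eng did not pass with the block (adjusted p = 0.0549) and passed in 2 of the 8 fits without 1 library, so that the list had 1 gene called with the block and in 6 of the 8 fits, and 3 without either C57 RT replicate.

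In the Notch list 1 of 14 genes was called higher and none was called lower. Of the 14, 3 were above 0 (median -0.15), and at an unadjusted p under 0.05 there were 2 higher and 4 lower. Hey1 rose by 1.19 ± 0.27 (adjusted p = 0.0434), from 191, 401, 172 and 97.1 CPM to 546, 464, 366 and 443, and the groups overlapped through C57 RT replicate 2. It passed in 1 of the 8 fits without 1 library, that without C57 RT replicate 2, and with the replicate block it did not pass (adjusted p = 0.0583). The ligand Dll4 had -0.48 ± 0.18 (adjusted p = 0.164) and Nrarp, a Notch target and inhibitor, had -0.52 ± 0.19 (adjusted p = 0.159). Of the 26 arterial identity genes, Hey1 was called higher and Slc45a4, a solute carrier, was called lower (-1.67 ± 0.28, adjusted p = 0.0139), and the median of this list was 0.08.

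Of 10 venous genes 3 were called, all higher (median 0.90). The count was 0 without WT RT or WT COLD, 1 without C57 COLD replicate 2, KO RT or KO COLD, 2 without C57 COLD replicate 1, 3 without C57 RT replicate 1 and 4 without C57 RT replicate 2. Plvap, which forms the diaphragms of fenestrae and caveolae, was at 165, 202, 98.7 and 77.8 CPM at RT and at 348, 328, 374 and 296 CPM in the cold, and rose by 1.35 ± 0.23 (adjusted p = 0.0135). Icam1, the adhesion molecule for leukocytes, rose by 1.17 ± 0.23 (adjusted p = 0.0267), with 69.2 to 140 CPM at RT and 199 to 280 CPM in the cold. Tmem252 rose by 2.22 ± 0.34 (adjusted p = 0.0123). The adhesion list had 2 of 13 genes called, Icam1 and the chemokine Ccl7 (3.09 ± 0.42, adjusted p = 0.0059), whose cold values were 46.1, 58.1, 219 and 55.3 CPM. In the same libraries the stromal gene Lum was called higher (1.93 ± 0.35) and the 9 stromal genes had a median of 1.19. Ucp1 was called higher (1.80 ± 0.32), with summed brown adipocyte genes at 27220 to 44707 CPM in the cold and at 18107 to 35847 CPM at RT. Most of these sums was Fabp4, which endothelial cells express too, at 24510 to 41563 CPM in the cold and at 16374 to 33495 CPM at RT. The part of stromal and adipocyte RNA in the results was not tested.

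Interferon-stimulated genes encode antiviral proteins and are switched on by interferon through STAT and IRF factors at promoter elements of the form GAAANNGAAA, where N is any base. Of 28 tested, 7 were called higher and 0 lower, with a median of 0.64. Between 1 and 7 were called when a library was left out, with 7 without C57 RT replicate 2 and 1 without C57 COLD replicate 2, Adrb1 KO RT or Adrb1 KO COLD. With the replicate block 5 were called, and Ifit1 and Ifi44 did not pass (adjusted p = 0.0557 and 0.0670). Usp18, which removes the ubiquitin-like protein ISG15, was at 35.5, 86.2, 24.3 and 12.5 CPM at RT and at 151, 168, 63.7 and 99.2 CPM in the cold. It rose by 1.81 ± 0.26 (adjusted p = 0.0087). The WT COLD library was below C57 RT replicate 2, so that the groups overlapped. Ifit1, an RNA-binding antiviral protein, was at 104, 146, 85.0 and 77.8 CPM at RT and at 348, 295, 98.0 and 267 CPM in the cold (1.17 ± 0.26, adjusted p = 0.0404). Here too WT COLD was within the RT range. Ifit3, Rsad2, Rtp4, Ifit3b and Ifi44 rose by 1.35, 1.22, 1.10, 1.56 and 1.02. Irf7, the transcription factor that amplifies the response, was at 147, 215, 120 and 102 CPM at RT and at 618, 495, 158 and 208 CPM in the cold. It did not pass (1.15 ± 0.28, adjusted p = 0.0522), with 1.73 in C57 mice and 0.54 in the Adrb1 line, a difference that did not pass either (adjusted p = 0.270). In none of the 28 genes were all 4 cold libraries above all 4 RT libraries.

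The promoters of these genes are shown because several of the called members share the element. Windows of 300 bases (250 before the start to 50 after it) were read from RefSeq, build GRCm38.p6, and searched for GAAANNGAAA on both strands. It was found in 16 of the 25 interferon genes with a window (64%), in 4 of 5 of the called ones, and in 3.99% of all 27025 genes. It was in 9.20% of the 87 called higher genes with a window and in 0 of the 76 called lower ones. The element lies upstream of the start in the 4 called genes, on the strand opposite to the gene, and is in capitals below in the direction of the gene.
Ifit1, chr19:34640775-34640804 (+): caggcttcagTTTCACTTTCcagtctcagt
Ifit1, chr19:34640794-34640823 (+): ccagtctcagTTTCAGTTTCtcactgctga
Ifit3, chr19:34583363-34583392 (+): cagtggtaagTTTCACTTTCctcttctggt
Ifit3b, chr19:34607759-34607788 (+): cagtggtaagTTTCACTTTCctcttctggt
Rsad2, chr12:26456553-26456582 (-): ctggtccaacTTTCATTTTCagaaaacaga
The stretches shown for Ifit3 and Ifit3b are identical, each gene has a further element that is not shown, and reads may be split between these related genes. The elements of Ifit1 begin 104 and 85 bases before its start. A match of letters is a description and not evidence of binding.

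Among the genes lower in the cold were Sema6a, Cirbp, Chp2, Angpt1 and 2 MHC genes. Sema6a, a transmembrane semaphorin, was at 173, 206, 159 and 182 CPM at RT and at 95.9, 67.5, 76.8 and 107 CPM in the cold (-1.12 ± 0.18, adjusted p = 0.0131). Cirbp, an RNA-binding protein named for its induction in cooled cells, was at 189, 219, 156 and 154 CPM at RT and at 55.3, 69.6, 55.6 and 87.7 CPM in the cold (-1.46 ± 0.20, adjusted p = 0.0059). Chp2, a calcium-binding protein of the calcineurin B family, fell from 146, 143, 329 and 344 CPM to 57.2, 28.0, 31.0 and 21.0 (-2.78 ± 0.40, adjusted p = 0.0087). The groups were apart in each of the 3. For Chp2 the value was -1.78 in C57 mice and -3.86 in the Adrb1 line, a difference that did not pass (adjusted p = 0.194). The non-classical class I genes H2-Q6 and H2-Q7, near-identical paralogs whose reads may be split, had -1.03 ± 0.20 and -1.35 ± 0.31 (adjusted p = 0.0264 and 0.0421), 2 of 13 MHC genes called. Kdm6b, a histone demethylase, had -1.07 ± 0.25 (adjusted p = 0.0455, and 0.0670 with the replicate block).

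Other lower genes are those of mural cells. Myh11, smooth muscle myosin, was at 255, 653, 770 and 1228 CPM at RT and at 186, 234, 230 and 208 CPM in the cold (-1.62 ± 0.38, adjusted p = 0.0455). Pdgfrb, the pericyte receptor, had -1.06 ± 0.24 (adjusted p = 0.0440), Gucy1a1, a subunit of the nitric oxide receptor, had -1.67 ± 0.27 (adjusted p = 0.0128), and Angpt1, a Tie2 ligand made by mural cells, had -1.26 ± 0.28 (adjusted p = 0.0404). With the replicate block Myh11 and Angpt1 did not pass (adjusted p = 0.0583 in each). Of 10 mural genes 2 were called, both lower (median -0.78). Without 1 library Myh11 passed in 2 of the 8 fits, those without a C57 RT replicate, and Pdgfrb in 1, that without C57 RT replicate 1. The summed mural level, taken over the same list, was lower in the cold libraries than in the RT libraries, as given above. When the arterial cells with mural counts were left out, 160 genes were called, 109 of them among the 218, and 0 of the 2 mural genes still tested. These were Myl9 and Rgs5, and Rgs5 is a gene by which the cells were left out. Myh11 and Pdgfrb were not tested there, so this fit cannot decide on the mural calls. Ctla2a (2.59), Col15a1 (2.64), Dpep1 (2.43), Sdcbp2 (2.06), Smad6 (1.56), Eng (1.28), Sema6a (-1.40), Chp2 (-2.93) and Cirbp (-1.72) were still called there, while the interferon list had 4 of 27 called (median 0.52) and Ifit1 did not pass (0.88, adjusted p = 0.0646).

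**Figure D4:**
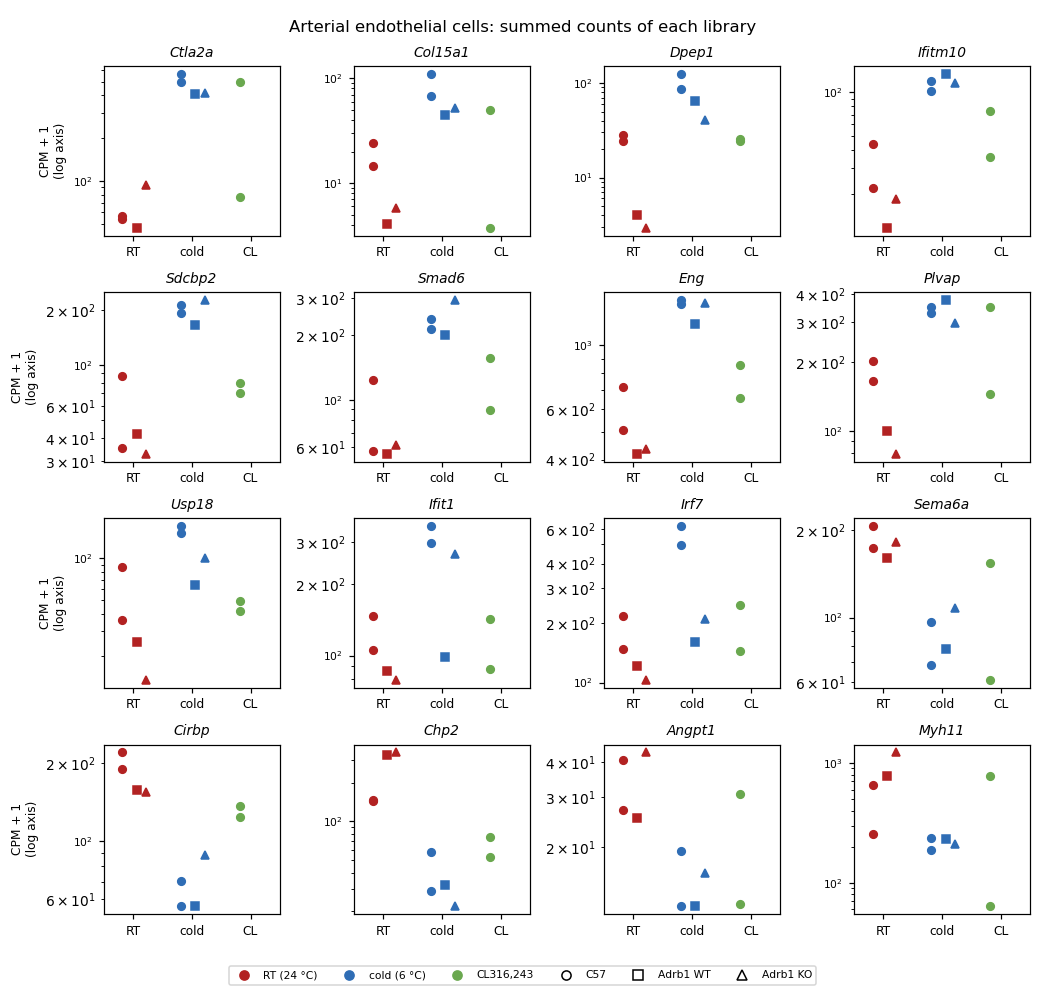
CPM plus 1 (y axes, log scale, a separate range in each panel) of 16 genes in the arterial cells of each library at RT, in the cold and with CL, with a symbol for each line and no error bars since each point is 1 library. Ctla2a to Plvap lie higher in all 4 cold libraries than in all 4 RT libraries, Usp18, Ifit1 and Irf7 overlap, and Sema6a to Myh11 lie lower in all 4 cold libraries.

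The cold effect was also set against that of the line. One gene passed the test of the difference between lines, Lars2, a mitochondrial tRNA synthetase. It was at 22.96 and 29.8 CPM in the C57 RT libraries and at 18.4 and 12.5 CPM in the C57 COLD libraries. In the Adrb1 line it was at 416 and 464 CPM at RT, the libraries of kit version 3, and at 16.3 and 17.2 CPM in the cold (difference -4.15 ± 0.46 on the log2 scale, adjusted p = 0.0367). The high values are in the 2 kit version 3 libraries alone, and kit, collection day and temperature cannot be told apart there.

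CL infusion, which shares its RT libraries with the cold comparison, called no arterial gene by edgeR (0%). At an unadjusted p under 0.05 there were 308 genes, 1.84% of all tested higher and 2.1% lower, and DESeq2 called 1 gene, Apoc1. Without RT replicate 1, which leaves C57 RT replicate 2 as the only RT library, 62 genes were called. Without CL replicate 2, 8 genes were called, and without RT replicate 2 none. Interferon genes had 1 of 29 with an unadjusted p under 0.05 (median 0.02). Notch genes had 3 of 14 lower and 0 higher (median -0.31). Nrarp was at 154 and 288 CPM at RT and at 74.2 and 106 CPM with CL (-1.10 ± 0.30, unadjusted p = 0.0056 by edgeR), Dll4 was at 201 and 259 CPM against 116 and 103 (-0.93 ± 0.26) and Notch4 had -0.84 ± 0.26, all 3 with an adjusted p of 1.00. The CL libraries were below the RT libraries in each, as in 1249 of all 7805 genes tested. Dlk1, a membrane protein related to Notch ligands, was at 139 and 133 CPM at RT and at 30.2 and 16.3 CPM with CL (-2.45 ± 0.39, adjusted p = 0.558).

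The matrix list had 5 of 30 genes higher with CL at an unadjusted p under 0.05 and 0 lower (median 0.45), among them the laminin chain Lama4 (1.27 ± 0.33), the proteoglycan Hspg2 (1.10 ± 0.40) and Loxl1, which crosslinks elastin (1.43 ± 0.55). Brown adipocyte genes had 4 of 8 higher and 0 lower, with a median of 1.96. Cidea, a lipid droplet protein, was at 13.6 and 6.63 CPM at RT and at 179 and 35.4 CPM with CL, and Ucp1, the uncoupling protein, was at 12.5 and 43.1 CPM against 158 and 38.1. For Ucp1 the groups overlapped, and for both genes CL replicate 1 held the high value. Stromal markers had 1 of 9 higher at an unadjusted p under 0.05 and 7 of 9 above 0 (median 0.90). The part of adipocyte and stromal RNA in the other values was not tested.

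CL and cold were compared directly, and 0 genes were called (0%), with 331 at an unadjusted p under 0.05, 2.43% of all tested lower with CL, and none by DESeq2. Interferon genes had 13 of 29 lower with CL than in the cold at an unadjusted p under 0.05 and 0 higher (median -0.88). Usp18 was at 48.7 and 40.8 CPM with CL against 151 and 168 CPM in the cold (-1.80 ± 0.30, adjusted p = 0.561). Ifit1 was at 142 and 87.1 CPM against 348 and 295 (-1.46 ± 0.29, adjusted p = 0.697), and Irf7 was at 246 and 144 CPM against 618 and 495 (-1.48 ± 0.36, adjusted p = 0.969). Both CL libraries lay below both COLD libraries in these 3 genes, as in 1580 of all 7805 genes tested. In the same comparison the stromal markers had 3 of 9 lower with CL at an unadjusted p under 0.05 and 0 of 9 above 0 (median -0.86), and the 8 brown adipocyte genes tested had a median of 0.82. Their part in these values was not tested. Dpep1 was at 23.2 and 24.5 CPM with CL, as at RT, against 124 and 86.2 CPM in the cold (-2.07 ± 0.34, adjusted p = 0.561).

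The deletion of Adrb1 was checked first in the targeted cells. Adrb1 was at 0 CPM in the Pdgfra-positive cells of both KO libraries and at 1.74 and 3.93 CPM in those of WT. In the arterial sums it was at 13.4 and 15.2 CPM in KO and at 10.6 and 4.82 CPM in WT. These values rest on 13.9 and 7.98 counts in KO and on 6.99 and 2.95 counts in WT. The part of mural RNA in them was not tested. Each genotype has 1 library at each temperature, and the spread of the KO comparison comes mainly from the C57 replicates. It called none of 8798 genes by edgeR (0%), with 207 at an unadjusted p under 0.05, 1.05% of all tested higher and 1.31% lower, and DESeq2 called Clec3b. Arterial identity genes had 0 of 26 with an unadjusted p under 0.05 (median 0.05), Notch genes had 1 of 15, the glycosyltransferase Mfng (-0.63 ± 0.25), and interferon genes had 1 of 30, Irgm1 (0.62 ± 0.23). Of 9 stromal genes 7 were lower at an unadjusted p under 0.05 (median -2.13), among 115 lower genes in all. Dcn, a stromal proteoglycan, was at 231 and 804 CPM in WT (RT, COLD) and at 9.61 and 359 CPM in KO (-2.59 ± 0.89, adjusted p = 1). Clec3b was at 102 and 163 CPM against 3.84 and 49.6 (-2.70 ± 0.46, adjusted p = 0.253), and the chemokine Ccl2 was at 12.1 and 397 CPM against 2.88 and 17.2 (-4.08 ± 0.70, adjusted p = 0.253). In all 3 genes KO was lower than WT at each temperature, as in 2149 of all 8798 genes tested. The low values were in libraries whose summed stromal markers were 134 and 1501 CPM against 1982 and 2717 CPM in WT. Of 5 erythroid genes 2 were higher in KO at an unadjusted p under 0.05 and all 5 were above 0 (median 4.63), with sums of 1128 and 26.6 CPM in KO against 2.98 and 14.7 CPM in WT. The part of stromal and erythroid RNA in the KO values was not tested.

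Whether arterial cells responded unlike other endothelial cells was tested within libraries, as the difference between the log2 responses of the classes. In C57 mice 8 of 9946 genes differed after cold (0.0804%) and 8 with CL (0.0804%), and both use the same RT libraries. Aqp1 was at 103 and 93.9 CPM in arterial cells at RT and at 77.6 and 138 CPM in the cold, while in other endothelial cells it went from 3043 and 3293 CPM to 843 and 798 CPM. The response difference was 2.16 ± 0.38 (adjusted p = 0.0464). Hspe1, a mitochondrial chaperonin, was at 197 and 111 CPM in arterial cells at RT and at 77.5 and 80.9 CPM in the cold, and at 167 and 139 CPM against 509 and 263 CPM in other endothelial cells (difference -2.11 ± 0.35, adjusted p = 0.0464). The classes thus lay close together at RT for Hspe1 and apart in the cold, while for Aqp1 the gap between them was narrower in the cold. S100a4, a calcium-binding protein, was at 141 and 114 CPM in arterial cells at RT and at 10.3 and 42.5 CPM in the cold, and at 12.2 and 6.75 CPM against 10.9 and 41.0 CPM in other endothelial cells (difference -3.50 ± 0.47, adjusted p = 0.0075). In the arterial cells of the Adrb1 line it was at 119 and 100.2 CPM at RT and at 106 and 177 CPM in the cold. For Car3 the difference was -3.38 ± 0.44 (adjusted p = 0.0075), but it was at 3216 CPM in the other endothelial cells of COLD replicate 1 and at 147 CPM in those of COLD replicate 2, and it is a gene that the authors' correction for free RNA took as not expressed. With the cold libraries left out in turn, between 3 and 34 genes differed, and 4 without either RT library.

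**Figure D5:**
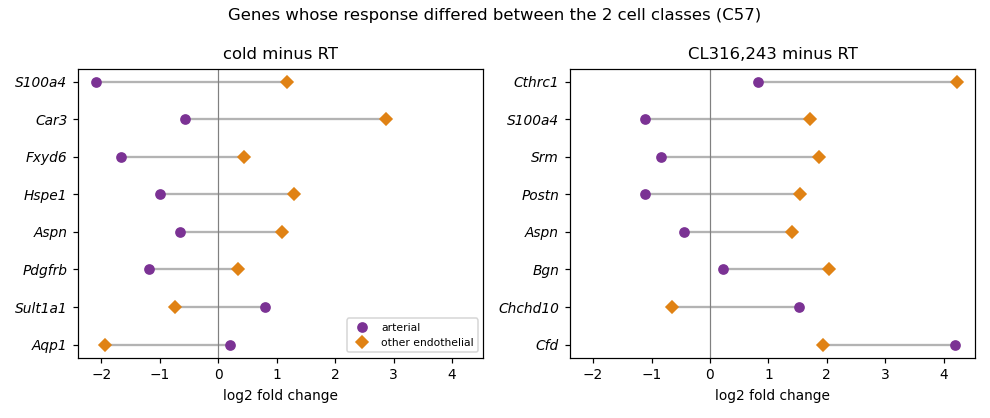
Fitted log2 fold change (x axes) of the 8 genes whose cold response (left) and the 8 whose CL response (right) differed between arterial cells (circles) and other endothelial cells (diamonds) in C57 mice; standard errors of the differences run from 0.26 to 0.54. After cold Aqp1 is at 0.19 in arterial cells and at -1.94 in other endothelial cells, and Hspe1 is at -0.99 and 1.30.

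With the RT and cold libraries of both lines, a fit chosen after seeing the data, 388 of 9058 genes differed between the classes, 195 with a higher arterial response (2.15%) and 193 with a lower one (2.13%), and 7 of the 8 C57 genes were among them. Of 15 capillary genes 6 had a higher arterial response and 0 a lower one (median 0.73). The 15 pan-endothelial genes had 3 with a higher arterial response and 0 with a lower one, all 15 were above 0 and their median was 0.56. For Aqp1 the difference was 2.37 ± 0.28 (adjusted p = 0.00028), with 0.76 in arterial cells and -1.58 in other endothelial cells. Timp4 and Meox2, an endothelial transcription factor, had 0.17 and 0.16 in arterial cells and -1.16 and -1.05 in other endothelial cells. Nos3, the endothelial nitric oxide synthase, had a difference of 1.21 ± 0.26 (adjusted p = 0.0157), with -0.02 in arterial cells and -1.37 in the others. For the Notch ligand Dll4 these were 0.90 ± 0.19 (adjusted p = 0.0149), -0.48 and -1.37, and for the tight junction protein Cldn5 0.89 ± 0.24 (adjusted p = 0.0409), -0.42 and -1.33. For Timp4, Meox2, Nos3, Dll4 and Cldn5 the fold change was thus below -1 in other endothelial cells and nearer to 0 in arterial cells. The stromal markers of other endothelial cells summed to 7052, 2056, 7412 and 8142 CPM at RT (C57 replicates 1 and 2, WT and KO) and to 5540, 6844, 14907 and 13534 CPM in the cold, and the lymphatic markers to 362, 258, 1825 and 420 CPM at RT and to 604, 1608, 3272 and 7966 CPM in the cold. Their part in these differences was not tested. Gpihbp1 and Btnl9 instead had a higher fold change in arterial cells, 1.16 and 1.17, than in the others, 0.07 and -0.33. Gpihbp1 was at 1101, 1145, 433 and 411 CPM in arterial cells at RT and at 1963, 2148, 1353 and 1140.0 CPM in the cold. Some genes named above as called higher in the cold also had a higher arterial response. These were Ctla2a (1.73 ± 0.22, adjusted p = 0.00036), Col15a1 (1.83 ± 0.38), Abi3 (1.65 ± 0.29), Dpep1 (1.23 ± 0.30) and Lum (1.62 ± 0.37). Each was lower in arterial than in other endothelial cells in every RT library. In other endothelial cells Ctla2a was at 341, 416, 340 and 388 CPM at RT and at 1143, 1184, 729 and 603 CPM in the cold.

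Genes with a lower arterial response included Hspe1 (-2.32 ± 0.25, adjusted p = 0.00020) and 3 of the 17 genes tested of the hypoxia and glycolysis list (median -0.25, with 0 higher), the glycolytic enzymes Tpi1 (-1.26 ± 0.23), Pgk1 (-0.90 ± 0.21) and Eno1 (-0.88 ± 0.20). Pgk1 and Eno1 had a fold change of 0.19 and 0.20 in arterial cells and of 1.07 and 0.89 in other endothelial cells. Of 17 genes of oxidative phosphorylation, 2 were called with a lower arterial response, and 0 were above 0 (median -0.50). Of 30 interferon genes 2 had a lower arterial response, Ifi27l2a (-1.59 ± 0.31, adjusted p = 0.0097) and Irf7 (-0.95 ± 0.26, adjusted p = 0.0493). Of the 30, 6 were above 0 (median -0.27), and at an unadjusted p under 0.05 there were 10 lower and 0 higher. Over all 9058 genes tested, 778 were lower and 871 higher at that limit (median 0.03). The cold response of Irf7 was 1.15 in arterial cells and 2.19 in other endothelial cells, and for Usp18 it was 1.81 and 1.98 with no called difference. Slc45a4 and Pdgfrb, called lower in the cold, had a lower arterial response too (-1.69 ± 0.43 and -1.16 ± 0.24). Mural genes had 5 of 10 with a lower arterial response, and the mural sums given above are taken over the same list.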

How the data were processed

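The deposited matrices hold expected counts per gene and cell. The authors counted molecules with Cell Ranger 3.0.1 and subtracted free RNA with SoupX, with Fabp4 and Car3 taken as not expressed in stromal cells. The genome build of the counts is not given in the sources used here. Values stayed fractional for the choice of cells, were summed per library and rounded. Sums were fitted with edgeR 4.0.16 (R 4.3.3, TMM factors, filterByExpr, glmQLFit and glmQLFTest), two-sided, Benjamini-Hochberg adjusted over all genes tested. The 6 C57 libraries shared 1 fit. Class differences had the library as block. DESeq2 1.42.0 was an alternative. CPM values are not scaled by TMM.

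The members and lists were chosen with earlier results of these data known. Listed genes may be named; the rule for others (12 called genes each way per contrast) found none. No doublet filter was applied; without the top 6% of Scrublet scores (scanpy 1.11.5), fits were repeated. On simulated data, edgeR recovered 78.9% of 95 genes changed by a log2 of 2 and 26.5% of 98 changed by 1, with 5 false calls among 7348. The simulated spread followed the trend over genes and not that of each gene, and only genes above a set mean CPM were changed. These percentages are thus not the power of the C57 tests. Replicates are separate pools and differed beyond counting noise (chi-square divided by its degrees of freedom, 3.74 to 9.36). Equal C57 numbers mark 1 experiment per the study's methods, so the number was also fitted as a block. Deviations from the group means of equal-numbered libraries correlated at 0.09, -0.01 and 0.14. Lin+ libraries entered no comparison.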

Additional observations from a re-analysis of the deposited data

Results flagged for a closer look

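The following results concern differences in response, tested as class by treatment terms in C57 mice, as log2 arterial minus other endothelial cells. After cold they were -2.11 for Hspe1, -3.38 for Car3, -3.50 for S100a4, 2.16 for Aqp1, 1.59 for Sult1a1, -2.16 for Fxyd6, -1.70 for Aspn and -1.54 for Pdgfrb. With CL they were -1.84 for Bgn, -2.59 for Postn, -3.28 for S100a4, -2.73 for Srm, 2.24 for Chchd10, 2.29 for Cfd, -1.85 for Aspn and -3.39 for Cthrc1. Cfd, an adipocyte gene, was at 875 CPM in the arterial cells of CL replicate 1 and at 23.04 CPM in those of CL replicate 2, and in other endothelial cells of these libraries at 673 and 41.6 CPM. At RT it was at 29.5 and 13.9 CPM in arterial cells against 115 and 75.4 CPM in other endothelial cells. Chchd10 was at 181 and 63.8 CPM in arterial cells with CL against 393 and 104 CPM, and at RT at 42.9 and 47.5 CPM against 401 and 431 CPM. Postn, Cthrc1, Aspn and Bgn are genes of stromal cells, and the stromal markers of other endothelial cells summed to 8745 and 18439 CPM with CL against 7052 and 2056 CPM at RT. Their part in these differences was not tested. Lars2 differed in its cold response between the Adrb1 line and C57 mice by -4.15, in the line whose RT libraries came from another kit version and collection day. The 10 Lin+ libraries, which no comparison used, held 175 cells past the arterial rule among 1369 endothelial cells, 4 to 35 in each library. No labelled group had 4 or more libraries, so no library was tested as an outlier within its group.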

How the results depend on the processing

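Calls after cold in C57 mice stayed at 0 with RLE factors, the stricter or wider gates, without high Scrublet scores, mural or lymphatic counts, at equal depth and without any library. They were 3 with DESeq2, 181 without the low-count filter and 218 with 8 libraries. The 8-library fit, whose alternatives were chosen after seeing the data, as were those without lymphatic counts, gave 15, 24, 38, 49, 32, 169, 347 and 421 calls without 1 library (WT RT, WT COLD, KO RT, KO COLD, C57 COLD replicates 2 and 1, C57 RT replicates 1 and 2), 160 without mural and 243 without lymphatic counts, 152 with DESeq2, 927 without the filter, 78 at equal depth (arterial sums thinned to 301666 counts, with cell numbers and counts per cell not matched) and 161 with the replicate block. For CL the counts were 1 with DESeq2, 62 without the filter and 0 to 62 without 1 library. For CL against cold they were 70 without the filter and 0 to 2 without 1 library. For KO they were 1 with DESeq2, 56 without the filter and 1 without mural counts. The cold response differences numbered 159 without the filter, 1 at equal depth (both classes of a library thinned to the same sum), 3 to 34 without 1 library and 388 with 8 libraries; those of CL numbered 67 without the filter, 1 at equal depth and 1 to 10 without 1 library. The cause of these shifts was not tested. The share difference after cold was -0.83 points of all Lin- cells and 0.763 to 16.4 points without 1 library. For CL it was -1.85 of all Lin- cells, -2.20 with rounded values, -4.18 thinned and -12.0 to 16.1 without 1 library. Over 8 libraries the cold difference was -2.12 of all Lin- cells, -5.69 with rounded values and -0.221 thinned. No exact permutation test of a share passed. Tests of 2 libraries against 2 could not, since their smallest p is 0.3333. At that p the C57 groups were apart after cold with an arterial sum of at least 3, without high Scrublet scores and without mural counts (8.47, 8.87 and 9.69 points). The same held for CL as a share of all Lin- cells. In the Adrb1 line it held with at least 100 genes (-4.46), of all Lin- cells (-3.42) and with rounded values. Of 63 named results, 2 reversed in 1465 alternatives, Apoe cold vs RT without RT replicate 1 (0.0019, range without 1 library -2.62 to 0.0019) and Irf7 CL vs RT without CL replicate 1 (-0.0819, range -0.0819 to 0.540). With the replicate block, calls were 0 in each C57 comparison, with 692, 362 and 395 at an unadjusted p under 0.05. In the 8-library fit 147 of the 218 genes were called with the block, and the named genes that then did not pass are given in the report. KO allowed no block. Arterial sums went down to 301301 counts, and the part of depth and of the spread between replicates in the missing calls was not tested.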
